A study of Bos taurus with 11 samples.

Results

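The genes described here handle cholesterol in the mammary gland of the young dairy calf. The set names 33 genes: 18 enzymes of cholesterol synthesis, 4 genes of sterol sensing, 6 of uptake and intracellular transport, and 5 of storage and efflux. A gene was taken where a probe set was annotated to its symbol alone, and 30 of the 33 were measured, out of 18444 genes with such a probe set. Each of the 30 had a single probe set. FDPS shares its probe set with RUSC1 and was left out, and INSIG2 and STARD4 were not analysed here.

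RNA came from mammary parenchyma, the epithelial tree with its supporting tissue, of female Holstein calves killed at 54 ± 2 days of age. Elevated calves (n = 6) drank 8.4 L of milk replacer in 3 daily meals, with a daily metabolisable energy of 5.9 ± 0.2 Mcal (SE). Their daily volume ranged from 6 to 12 L and their daily energy from 4.2 to 8.4 Mcal. Restricted calves (n = 5) drank 4 L in 2 daily meals, with 2.8 ± 0.2 Mcal, so energy, volume and meal number cannot be told apart. All calves drank the same replacer, with 28% protein and 15% fat, and were offered starter grain from day 18. A restricted calf whose parenchyma was too small to separate from the fat pad was not sampled, so the restricted calves here are those whose gland could be dissected.

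Animal cells build cholesterol from acetyl-CoA through mevalonate, squalene and lanosterol, and take it up from lipoproteins through lysosomes. When the endoplasmic reticulum is poor in sterol, SCAP escorts the precursor made by SREBF2 to the Golgi, where it is cut to release a transcription factor that raises the synthesis genes. When sterol is plentiful, INSIG proteins hold that precursor back, liver X receptors raise the export pumps ABCA1 and ABCG1, and SOAT1 converts the excess to esters for storage. In the mammary gland, cholesterol serves the membranes of growing ducts and, later, those around milk fat globules.

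Levels are log2 values, on which a step of 1 is a 2-fold difference. Array medians lay between 6.37 and 6.45, and of the 30 genes PMVK, NR1H3 and ABCG1 averaged below them. Parenchyma contains several cell types. Luminal epithelial markers averaged 8.56 to 9.37 in elevated calves and 6.80 to 8.94 in restricted calves, and 17 of the 20 averaged above the lowest array median. Adipocyte markers averaged 7.26 to 8.87 in elevated calves and 8.23 to 10.47 in restricted calves, and 17 of 20 likewise averaged above the lowest array median. Restricted 2 and restricted 4 stood apart, with adipocyte means of 10.47 and 9.90 and luminal means of 6.80 and 8.12. Skeletal muscle markers were low, with 7 of 11 averaging below the lowest array median; their mean was 5.51 to 7.08 in elevated calves and 5.13 to 5.78 in restricted calves. At an unadjusted limma p under 0.05, 8 of the 11 muscle markers were higher in elevated calves. At the same threshold 8 of 20 luminal markers were higher and 1 lower, and 1 of 20 adipocyte markers was higher and 9 lower. Of all probe sets, 4.95% were higher and 5.33% lower. In these 3 lists 0 markers passed the adjusted threshold of limma. In such bulk tissue, fewer cells of a type and less RNA per cell cannot be told apart.

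Differences between the diets went in both directions among the cholesterol genes. SREBF2, the master activator of cholesterol synthesis, was higher in every elevated calf than in any restricted calf, and SOAT1, the cholesterol-esterifying enzyme, was lower in every elevated calf. The other 28 genes overlapped between the diets. Over the whole table limma called 2 of 26773 probe sets at an adjusted p under 0.05 (0.00747%), and 0 of the 30 genes were among them. At an unadjusted p under 0.05 there were 6 of 30 (20%), against 10.3% of all probe sets. They were SREBF2, SQLE and CYP51A1 on the higher side and ACAT2, LIPA and SOAT1 on the lower side in elevated calves, while all probe sets gave 4.95% higher and 5.33% lower. All probe sets include many with no gene symbol. Fitting only those with 1 symbol gave 7 of 30, against 12.1% of them. Leaving out the dimmest 30% of probe sets gave 6 of 30, against 12.3%. The groups did not overlap at 2 of 30 genes, against 1.28% of all probe sets: 1 gene was higher in elevated calves, against 0.53%, and 1 lower, against 0.751%. Without restricted 2 and restricted 4 the count at an unadjusted p under 0.05 was 2, SREBF2 and SCAP, both higher in elevated calves, against 8.72% of all probe sets.

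The arms of the pathway had small median differences, in units of log2 and taken as elevated minus restricted. These were 0.071 for 17 synthesis enzymes, -0.0059 for 3 sterol sensing genes, 0.057 for 5 uptake and transport genes and -0.074 for 5 storage and efflux genes, beside 0.0031 for all probe sets. Within each arm, genes lay on both sides of 0. The widest spread was in sterol sensing, where SREBF2 stood at 0.45 and INSIG1 at -0.53, so the median of that arm is the value of SCAP.

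**Figure D1:**
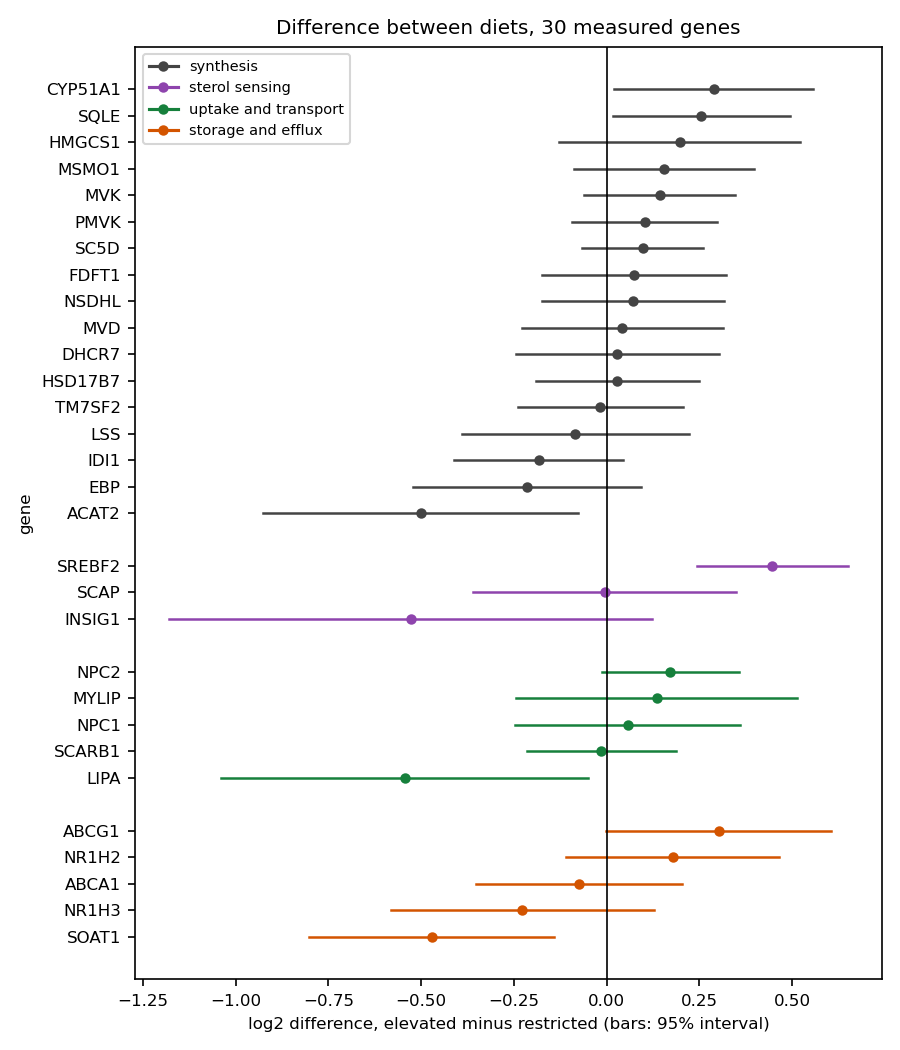
Log2 difference between elevated and restricted calves (x axis, elevated minus restricted) for the 30 measured genes (y axis), coloured by arm; points are limma estimates and bars 95% intervals. The bars of SREBF2, SQLE and CYP51A1 lie above 0, those of ACAT2, LIPA and SOAT1 below 0, and those of the other 24 genes include 0.

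Synthesis began with opposite signs at its first steps. ACAT2, the cytosolic thiolase that joins acetyl-CoA units (probe set 12897137), ran from 8.27 to 9.45 with a median of 9.01 in elevated calves. It stood at 9.32, 9.91, 9.43, 9.59 and 9.22 in restricted 1 to 5. The groups overlapped, but elevated 5 was the lowest of all calves and restricted 2 the highest. The ACAT2 mean was 8.99 ± 0.40 (SD, n = 6) for elevated calves and 9.49 ± 0.27 (SD, n = 5) for restricted calves. They differed by -0.50 ± 0.19 (SE; limma adjusted p = 0.423, exact two-sided permutation p = 0.0281). Leaving out restricted 2 and restricted 4 gave -0.33 (limma adjusted p = 0.719). HMGCS1, which makes HMG-CoA in the following step, differed by 0.20 ± 0.15 (SE), and by 0.088 without elevated 1.

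The mevalonate kinases and decarboxylase differed little. MVK, PMVK and MVD, which turn mevalonate into the isoprene unit, differed by 0.14, 0.10 and 0.042. MVK held exactly the same value, 7.39, in 6 of the 11 calves, and 0.474% of probe sets had as many equal values. IDI1, which isomerises the isoprene unit, differed by -0.18. Restricted 2 read 10.68, restricted 4 read 10.46 and the other 9 calves 10.05 to 10.25 for IDI1. It differed by -0.027 without those 2 calves.

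The squalene steps were led by SQLE. FDFT1, the squalene synthase, differed by 0.073. SQLE, the squalene epoxidase that acts as a control point of the pathway (probe set 12725522), ran from 9.28 to 9.75 with a median of 9.32 in elevated calves. It stood at 9.28, 9.19, 9.31, 8.89 and 9.05 in restricted calves. Restricted 2, 4 and 5 lay below every elevated calf, and elevated 1 stood above all others. The log2 difference was 0.26 ± 0.11 (SE; limma adjusted p = 0.454, exact two-sided permutation p = 0.0281), 1.19-fold, and was 0.19 without elevated 1 (limma adjusted p = 0.584). LSS, which closes squalene epoxide into lanosterol, differed by -0.084.

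Of the enzymes that trim lanosterol to cholesterol, CYP51A1 differed most. This lanosterol demethylase (probe set 12853428) ran from 7.62 to 8.23 with a median of 7.79 in elevated calves. It stood at 7.80, 7.46, 7.70, 7.31 and 7.48 in restricted calves, so that restricted 2, 4 and 5 again lay below every elevated calf. The log2 difference was 0.29 ± 0.12 (SE; limma adjusted p = 0.456, exact two-sided permutation p = 0.0455), and 0.18 without restricted 2 and restricted 4 (limma adjusted p = 0.759). The demethylation partners MSMO1, NSDHL and HSD17B7 differed by 0.15, 0.071 and 0.029. The sterol reductase TM7SF2 differed by -0.018, the isomerase EBP by -0.21, the desaturase SC5D by 0.097 and the final reductase DHCR7 by 0.029. Of the 14 synthesis enzymes whose 95% interval included 0, EBP had the lowest lower bound, -0.52, and HMGCS1 the highest upper bound, 0.52.

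Single calves led or trailed across many synthesis enzymes; these calves were singled out after their values were seen. Elevated 1 had the highest level of all 11 calves for 10 of the 17 synthesis enzymes, while it was highest at 7.60% of all probe sets. The 10 were HMGCS1, MVK, MVD, FDFT1, SQLE, CYP51A1, MSMO1, NSDHL, SC5D and DHCR7, which lie along the whole route from HMG-CoA to the last reduction. HMGCS1, for example, read 10.23 in elevated 1, against 9.28 to 9.82 in the other elevated calves and 9.35 to 9.62 in restricted calves. Elevated 5 was lowest for 7 of the 17 and at 14.9% of all probe sets. Restricted 2 was highest for 5 of them (ACAT2, IDI1, LSS, TM7SF2 and EBP) and at 15.4% of all probe sets. Elevated 1 also had the highest luminal mean (9.37) and the second lowest adipocyte mean (7.52) of the 11 calves; the part of cell make-up in its levels was not tested. Without elevated 1 the median difference of the synthesis enzymes was 0.014, against 0.071 with all calves.

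**Figure D2:**
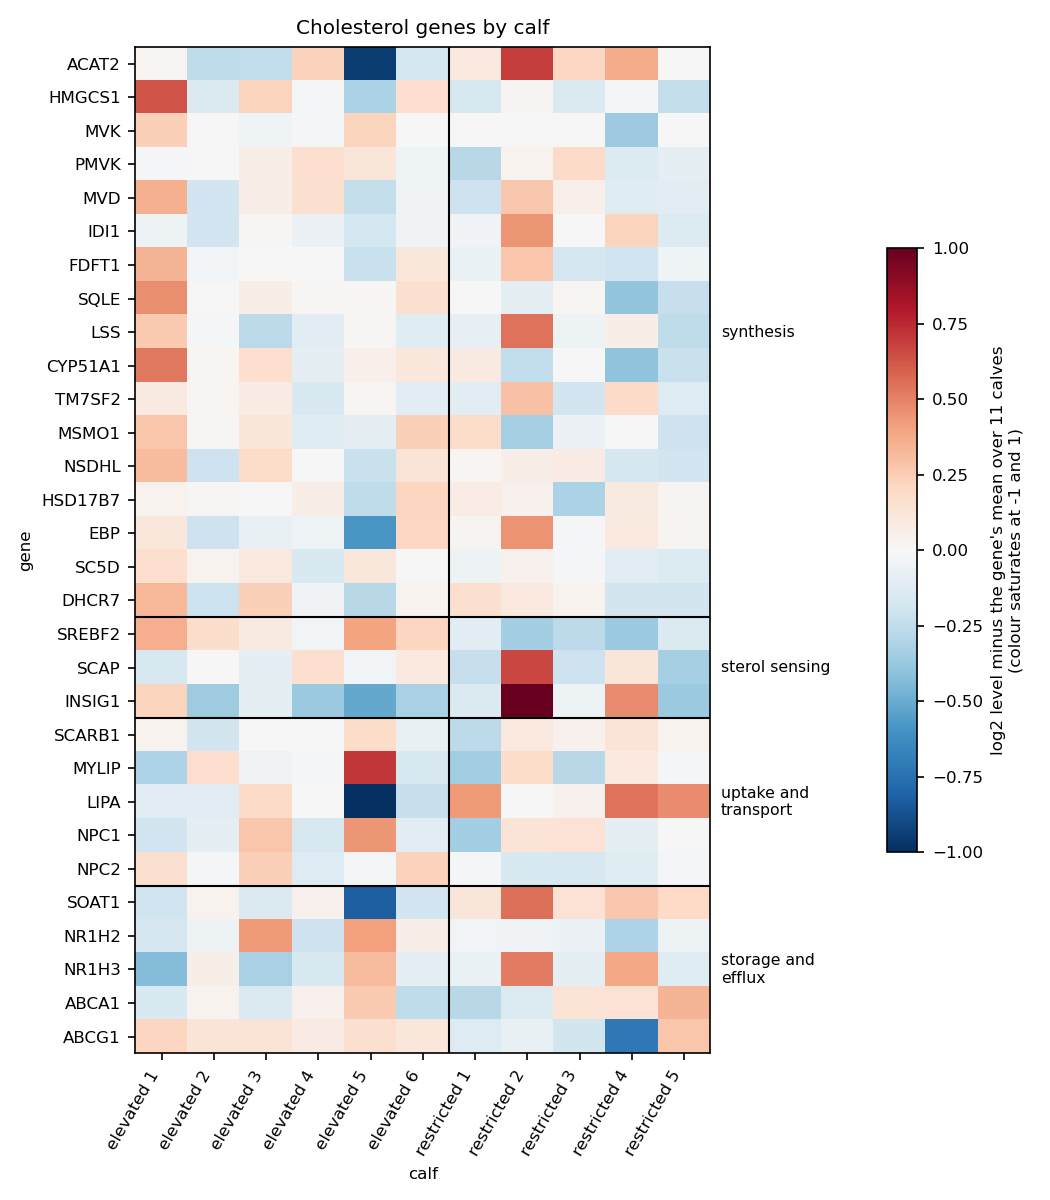
Level of each measured gene (rows, by arm) in each calf (columns, elevated left of restricted), as log2 level minus that gene's mean over the 11 calves; red is above and blue below the mean. Elevated 1 is red for most synthesis enzymes, restricted 2 is red for ACAT2, IDI1, LSS, EBP, SCAP and INSIG1, and elevated 5 is blue for ACAT2, EBP, LIPA and SOAT1.

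Among the sterol sensing genes, SREBF2 (probe set 12858405) read between 8.79 and 9.21 with a median of 9.01 in elevated calves. It read 8.71, 8.47, 8.55, 8.44 and 8.67 in restricted calves. Every elevated calf lay above every restricted calf, and the closest pair, elevated 4 and restricted 1, were 8.79 and 8.71. The log2 difference was 0.45 ± 0.09 (SE), 1.36-fold, with a 95% interval of 0.24 to 0.65 (limma adjusted p = 0.189, exact two-sided permutation p = 0.00433). It did not pass the adjusted threshold under any of the 23 alternatives (adjusted p from 0.0765 to 0.427), and its difference ran from 0.36 to 0.49 in them.

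SCAP, the escort of the SREBF2 product, differed by -0.0059 ± 0.16 (SE) over all calves. It lay between 8.23 and 8.56 in elevated calves and at 8.16, 9.06, 8.19, 8.52 and 8.07 in restricted calves. Restricted 2 and restricted 4 were the high restricted calves, and the other 3 lay below every elevated calf. Without those 2 calves SCAP differed by 0.25 ± 0.09 (SE; limma adjusted p = 0.470). Fitted beside the adipocyte mean, SCAP differed by 0.31 (limma adjusted p = 0.444).

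INSIG1, which retains the SREBF2 precursor in the endoplasmic reticulum and is itself a target of that pathway, spread more widely than any of the other 29 genes, over 2.04 log2 units. It ran from 8.76 to 9.49 with a median of 8.93 in elevated calves and stood at 9.12, 10.80, 9.22, 9.75 and 8.90 in restricted calves. Restricted 2 and restricted 4, which had the highest adipocyte markers, lay above all other calves. The log2 difference of -0.53 ± 0.30 (SE; limma adjusted p = 0.578) became -0.051 without these 2 calves and -0.14 when fitted beside the adipocyte mean. In elevated calves, the highest INSIG1 level belonged to elevated 1, the calf with high synthesis enzymes.

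**Figure D3:**
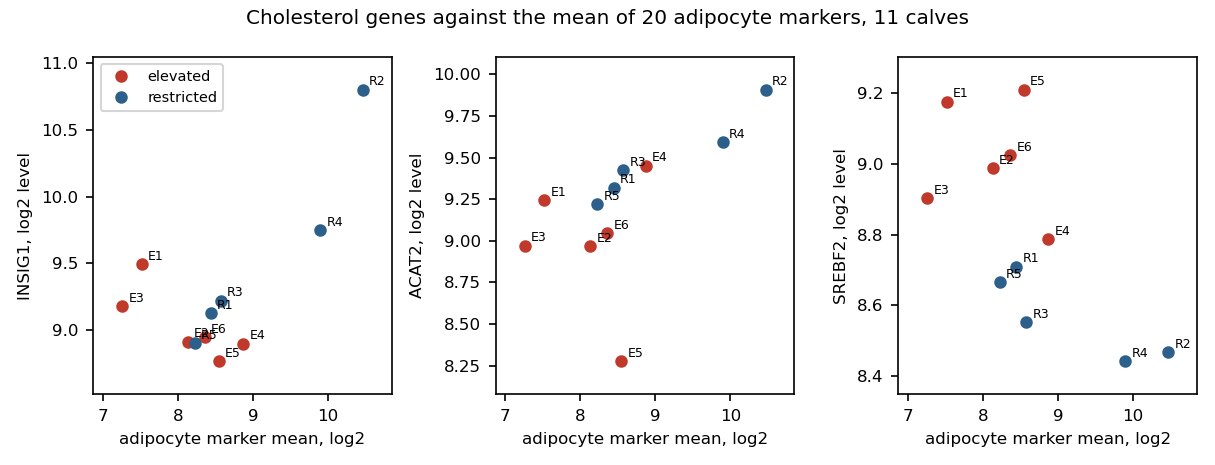
Level of INSIG1, ACAT2 and SREBF2 (y axes, log2) against the mean of 20 adipocyte markers in the same calf (x axes, log2); each point is a calf, named by the first letter of its diet and its number. R2 and R4 lie at the right, with adipocyte means of 10.47 and 9.90, and are the highest calves for INSIG1 and ACAT2 and the lowest for SREBF2.

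Variation between calves was then set against SREBF2, with 29 relations computed over the 11 calves. SOAT1 ran most closely opposite to SREBF2 (Pearson r = -0.86, permutation p = 1e-05, the smallest these permutations can give, adjusted p = 0.00029; Spearman rho = -0.97, permutation p = 1e-05, adjusted p = 0.00029). CYP51A1 ran with it (r = 0.77, permutation p = 0.0037, adjusted p = 0.0268; rho = 0.78, permutation p = 0.00647, adjusted p = 0.0469), and ACAT2 opposite to it (r = -0.81, permutation p = 0.00113, adjusted p = 0.0164; rho = -0.79, permutation p = 0.00524, adjusted p = 0.0469). By Pearson r the adjusted p was under 0.05 for 7 of 29, the other 4 being MVK (r = 0.74), SQLE (r = 0.72), LIPA (r = -0.69) and ABCG1 (r = 0.68). By Spearman rho LIPA passed as well (rho = -0.80, adjusted permutation p = 0.0469), whereas MVK (rho = 0.58, adjusted permutation p = 0.186), SQLE (rho = 0.67, adjusted permutation p = 0.126) and ABCG1 (rho = 0.66, adjusted permutation p = 0.126) did not. Without elevated 5 and elevated 1, the calves farthest from the SREBF2 median, r was -0.86 for SOAT1, 0.76 for CYP51A1, -0.87 for ACAT2, 0.71 for SQLE and 0.66 for ABCG1. In the same 9 calves MVK had r = 0.47 (permutation p = 0.251) and rho = 0.19 (permutation p = 0.639), so its pooled relation rests in part on elevated 5 and elevated 1. Restricted 4, which was kept, had the lowest level of both genes, 8.44 for SREBF2 and 7.03 for MVK. LIPA had r = -0.55 (permutation p = 0.126) and rho = -0.68 (permutation p = 0.0507) in these 9 calves. Restricted 2 and restricted 4, the calves with the highest adipocyte markers, were kept among the 9. Both lay below all other calves for SREBF2 and CYP51A1 and above all others for ACAT2 and SOAT1. The relations were not computed without them, and the part of cell make-up was not tested.

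These relations contain the difference between the diets. On values centred within each diet, 0 of 29 passed the adjustment (lowest adjusted p = 0.238) and 4 had an unadjusted permutation p under 0.05. The 4 were MVK, with a centred r of 0.72 (permutation p = 0.0118), SOAT1 with -0.71 (permutation p = 0.0164), ACAT2 with -0.68 (permutation p = 0.0335) and SCAP with -0.55 (permutation p = 0.0329). Centred r was 0.61 for CYP51A1 (permutation p = 0.0597) and 0.46 for SQLE (permutation p = 0.188). Centring keeps the distance of restricted 2 and restricted 4 from the other restricted calves. Of the 17 synthesis enzymes, 6 had a centred r above 0. Within the 6 elevated calves alone, r was largest for MVK (0.86, exact permutation p = 0.025), ABCG1 (0.84, exact permutation p = 0.0431), SC5D (0.80, exact permutation p = 0.0472) and SOAT1 (-0.74, exact permutation p = 0.0556). The adjusted p of each of these 4 was 0.403 (exact permutation). MVK read 7.63 in elevated 1 and 7.61 in elevated 5, against 7.35 to 7.39 in the other elevated calves. Its r within the elevated calves thus rests on these 2 calves as well. Restricted calves all read 7.39 for MVK except restricted 4, at 7.03, which limits its centred r. ABCG1 spanned only 6.04 to 6.18 in elevated calves, below the array medians.

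**Figure D4:**
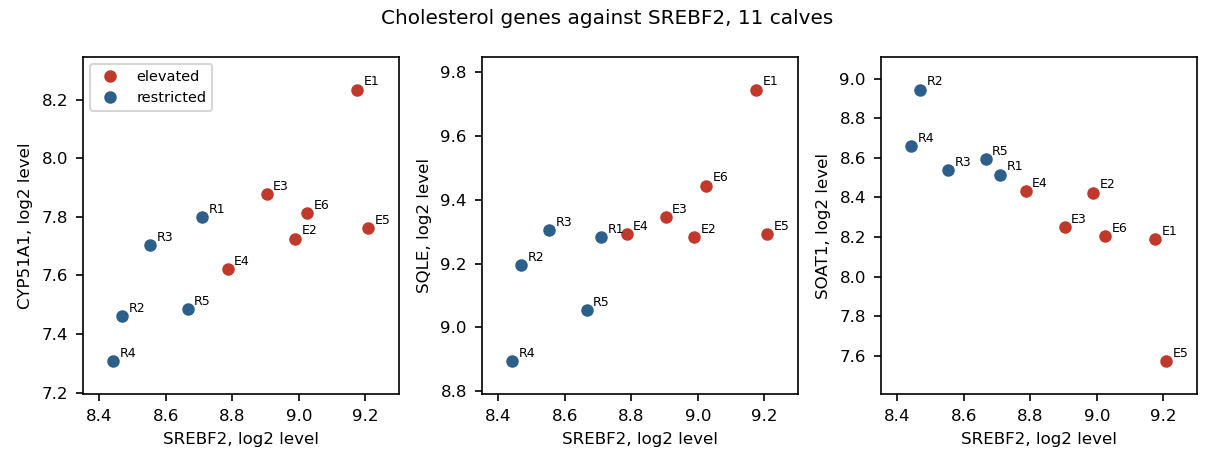
Level of CYP51A1, SQLE and SOAT1 (y axes, log2) against SREBF2 (x axes, log2), each point a calf named by the first letter of its diet and its number. SOAT1 descends as SREBF2 ascends, with E5 lowest at 7.57, and CYP51A1 and SQLE are highest in E1.

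Of the uptake and transport genes, LIPA had the largest difference. It encodes the lysosomal acid lipase that frees cholesterol from the esters of ingested lipoproteins (probe set 12821141). It ran from 9.30 to 10.72 with a median of 10.42 in elevated calves and stood at 10.95, 10.53, 10.57, 11.07 and 11.00 in restricted calves. Elevated 5 was far below the rest, and restricted 1, 4 and 5 lay above every elevated calf. The log2 difference was -0.54 ± 0.23 (SE; limma adjusted p = 0.447, exact two-sided permutation p = 0.0325), and -0.35 ± 0.13 without elevated 5 (limma adjusted p = 0.445). Without restricted 2 and restricted 4 it was -0.56 (limma adjusted p = 0.610), as large as with them. Elevated 5 also had the lowest macrophage marker mean, 7.73, against 7.98 to 8.25 in the other elevated calves and 7.97 to 8.43 in restricted calves. Of these markers, CD68, CSF1R, CD14, VSIG4, AIF1, MSR1 and TYROBP were lowest of the 11 calves in elevated 5. MERTK was highest there, at 8.48, and the rest lay between. Elevated 5 had the highest skeletal muscle mean, 7.08, against 5.51 to 6.46 in the other elevated calves. Its endothelial mean was also the highest, 9.71, against 8.72 to 9.11. The part of these cell types in the levels of elevated 5 was not tested.

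The remaining genes of this arm did not pass an unadjusted p of 0.05. NPC2, the soluble lysosomal protein that hands cholesterol to NPC1, differed by 0.17 ± 0.08 (SE; limma adjusted p = 0.522). NPC1, the membrane protein that exports it from the lysosome, differed by 0.057, with a 95% interval of -0.25 to 0.36. SCARB1, the receptor for selective uptake from high-density lipoprotein, differed by -0.014 with an interval of -0.21 to 0.19. MYLIP, a ubiquitin ligase that degrades lipoprotein receptors, differed by 0.13, and by 0.0049 without elevated 5, whose level of 10.14 was the highest of the 11 calves.

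In the storage and efflux arm, SOAT1, the acyltransferase that makes cholesterol esters (probe set 12734902), ran from 7.57 to 8.43 with a median of 8.23 in elevated calves. It stood at 8.52, 8.95, 8.54, 8.66 and 8.59 in restricted calves. The groups did not overlap, and elevated 5 lay 0.62 below the next calf, elevated 1. The SOAT1 mean was 8.18 ± 0.32 (SD, n = 6) for elevated calves and 8.65 ± 0.17 (SD, n = 5) for restricted calves. They differed by -0.47 ± 0.15 (SE; limma adjusted p = 0.353, exact two-sided permutation p = 0.00649). The difference was -0.35 ± 0.10 without elevated 5 (limma adjusted p = 0.350). It was -0.37 without restricted 2 and restricted 4 (limma adjusted p = 0.593) and -0.39 when fitted beside the adipocyte mean (limma adjusted p = 0.562).

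Of the liver X receptors, NR1H2, the widely expressed form, differed by 0.18 and NR1H3, the form typical of macrophages, liver and fat, by -0.23. NR1H3 read 6.62 in restricted 2 and 6.50 in restricted 4, above all other calves, and differed by -0.011 without them. Of their target pumps, ABCA1, which loads cholesterol onto lipid-poor apolipoprotein, differed by -0.074 with a 95% interval of -0.35 to 0.20. ABCG1, which exports to mature high-density lipoprotein, was nearly constant in elevated calves, from 6.04 to 6.18 with a median of 6.10. It read 5.83, 5.89, 5.79, 5.25 and 6.24 in restricted calves, so that 4 of 5 lay below every elevated calf and restricted 5 lay above them all. The ABCG1 difference was 0.30 ± 0.14 (SE; limma adjusted p = 0.490, exact two-sided permutation p = 0.0325), and 0.16 without restricted 4 (limma adjusted p = 0.679).

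**Figure D5:**
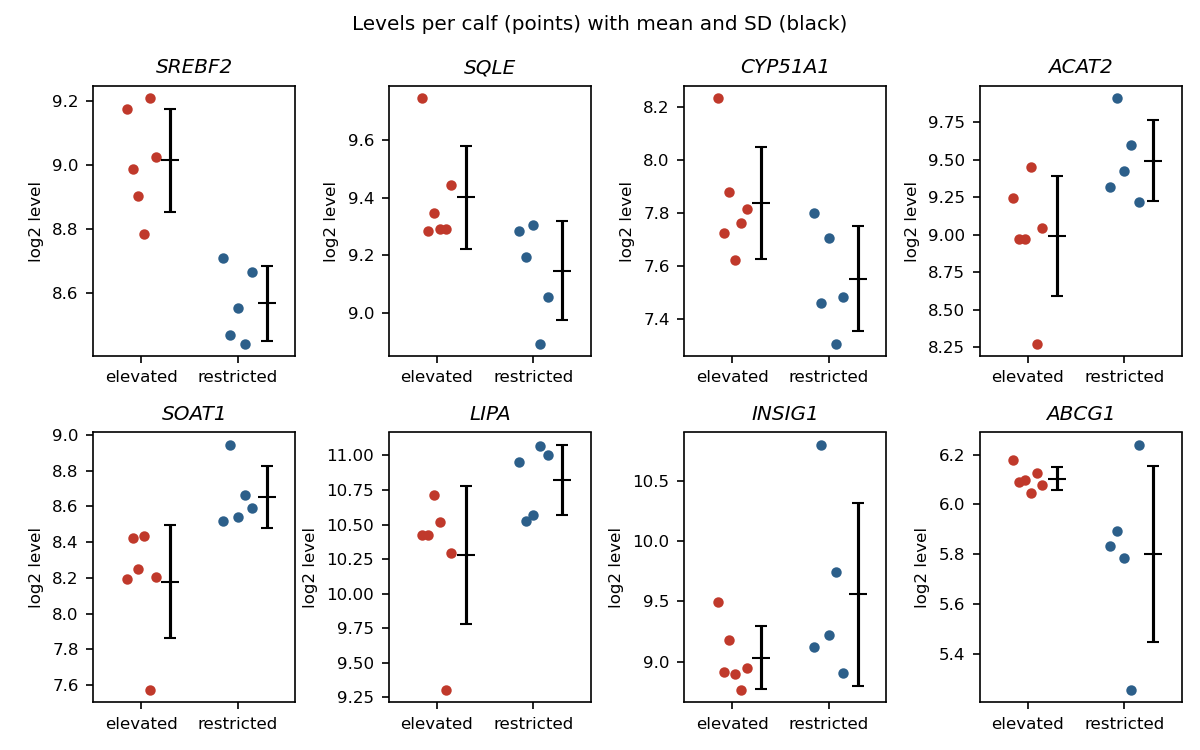
Log2 level per calf (points; elevated left, restricted right) of 8 cholesterol genes, with the group mean and SD beside the points in black; the y axes do not start at 0. SREBF2 and SOAT1 are the panels without overlap, elevated 5 is the low point for SOAT1 and LIPA, and restricted 2 is the high point for INSIG1.

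A further list held 44 sterol genes outside the set, of which 40 were measured, and 0 passed the adjusted threshold. At an unadjusted p under 0.05 there were 7 of 40 (17.5%), against 10.3% of all probe sets, with 4 higher and 3 lower in elevated calves. A fit of only the probe sets with 1 symbol had 12.1% at that threshold. The median difference over all 40 was -0.021. CH25H, the hydroxylase whose oxysterol product blocks SREBF2 processing and activates liver X receptors, had the largest positive difference of the 40, at 1.12 ± 0.24 (SE; limma adjusted p = 0.210, exact two-sided permutation p = 0.00649). CH25H ran from 5.06 to 6.15 in elevated calves and stood at 4.11, 4.35, 4.91, 4.46 and 4.91 in restricted calves. The groups did not overlap, although both lay below the array medians. The difference was 1.03 without restricted 2 and restricted 4 (limma adjusted p = 0.389).

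ERG28, known from yeast as a scaffold of sterol demethylation, differed by 0.34 ± 0.09 (SE; limma adjusted p = 0.295), and EBPL, a relative of EBP, by 0.21. ACSS2 and ACLY, which supply cytosolic acetyl-CoA from acetate and from citrate, differed by -1.21 and -0.48. ACSS2 ran from 8.46 to 9.83 in elevated calves; restricted 2 read 11.55, restricted 4 read 11.09 and the remaining restricted calves 9.39 to 9.90. Without these 2 calves ACSS2 and ACLY differed by -0.50 and -0.18. The sterol carrier SCP2 differed by -0.23. SREBF1, the relative of SREBF2 that drives fatty acid synthesis, differed by -0.020, and by 0.29 without restricted 2 and restricted 4; it was highest in restricted 2, at 8.34.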

How the data were processed

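Biotin-labelled RNA from 11 calves was read on 1-colour arrays, with 100 ng labelled per sample and an RNA integrity number above 7.0, per the labels' protocols. As deposited, the authors' values are log2 levels per probe set made with RMA, per the submitters' processing notes, which give no version; the log2 scale was read from the values. RMA equalises the distributions of the arrays, which hides any difference in total RNA per cell. The array's genome build is not given in the sources used here, so no coordinates are given.

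Probe sets were named from the platform annotation; of 26773, 18790 had 1 symbol, 385 several and 7598 none, and 18003 of the first kind were found by gene number in the reference gene table. The test was limma 3.58.1 in R 4.3.3 (lmFit and eBayes, unfiltered and with diet as the sole term), with Benjamini-Hochberg adjusted p-values computed over all probe sets and a threshold of 0.05. Differences are elevated minus restricted, and SE is the moderated standard error. Exact permutation tests used all 462 splits into 6 and 5, whose smallest p is 0.00216. Correlations with SREBF2 used 100000 permutations.

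All measured genes of the set are described. Of the other sterol genes, the 6 with the smallest p and SREBF1 are named. The genes, lists and alternatives were chosen with earlier results of these data known. The fit was tested on simulated data. The alternatives left out calves or dim or unnamed probe sets, renormalised the arrays (quantile or median), changed the variance model, weighted arrays, used Welch's test, blocked on the replicate number, added the adipocyte or luminal marker mean as a covariate, or averaged the probe sets of each gene. The number of arrays limits the precision. Figures were drawn with matplotlib 3.10.9.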

Additional observations from a re-analysis of the deposited data

Results flagged for a closer look

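In 94 groups of 5 or 6 calves (the levels of 30 genes, 7 other sterol genes and 10 list means, each in both diets), 9 held a calf far from the others by Dixon's ratio at its 95% critical value, where chance gives about 1 in 20. SQLE read 9.75 in elevated 1, against 9.28 to 9.44 in the other elevated calves. The mean of the sterol sensing genes was 8.97 in the same calf, against 8.75 to 8.82. In elevated 5, LIPA read 9.30, against 10.29 to 10.72, and SOAT1 read 7.57, against 8.19 to 8.43, in the other elevated calves. EBP read 9.85 in restricted 2 and 9.39 to 9.50 in the remaining restricted calves. In restricted 4, NR1H2 read 7.80, against 8.05 to 8.09, and MVK read 7.03, where the other restricted calves all read 7.39. HSD17B7 read 8.05 in restricted 3, against 8.40 to 8.46, and SCARB1 read 9.59 in restricted 1, against 9.89 to 9.99 in the group's other calves.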

How the results depend on the processing

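Over 23 alternatives, 0 of the 30 genes passed the adjusted threshold, and 20 kept the sign of their difference in all of them; SREBF2 and the other 5 genes at an unadjusted p under 0.05 were among these. Their number, 6 with all calves, was 3 with the adipocyte or the luminal marker mean as a covariate (SREBF2, SCAP and LIPA). In those fits 9.15% and 10.1% of all probe sets had such a p. It was 2 without restricted 2 and restricted 4 (SREBF2 and SCAP), against 8.72% of all probe sets. With a single calf left out it ran from 2 without restricted 4 (8.40% of all probe sets) to 7 without elevated 4 (12.2%). Without elevated 6 the number was 3, against 9.26%. The median of the 3 sterol sensing genes was 0.12 with array weights, 0.31 and 0.30 with the adipocyte and luminal means, and 0.25 without restricted 2 and restricted 4. Over single calves left out it ran from -0.089 (without restricted 5) to 0.16 (without restricted 2). SREBF2 stayed above 0 and INSIG1 below 0 in every alternative, and the extremes of this median, 0.31 and -0.089, were the values of SCAP. The median of the storage and efflux genes was -0.17 with array weights and 0.068 and 0.0082 with the adipocyte and luminal means, and ran from -0.15 (without restricted 1) to 0.000797 (without restricted 5). That of the uptake and transport genes ran from -0.026 (without elevated 5) to 0.10, and that of the synthesis enzymes from 0.014 (without elevated 1) to 0.098; synthesis gave 0.12 with array weights and 0.10 with the luminal mean. The cause of these shifts was not tested. With the replicate number as a block, 5 genes had an unadjusted p under 0.05, against 10.1% of all probe sets. That fit took numbers 1 to 5 only, so elevated 6 was left out. In it 0 genes passed the adjustment. It called 0 probe sets over the whole table. The unblocked fit without elevated 6 called 1, and the fit of all calves called 2. Taken as deviations from the group means over all probe sets, same-numbered calves correlated between -0.15 and 0.21. Of 10 calves, 2 correlated best with their own number. So few pairs cannot show whether the numbers pair the calves. Averaging the probe sets of each gene left the differences as they were, since each gene of the set has 1. It put 7 genes at an unadjusted p under 0.05, with ABCG1 added, against 12.1% of all genes. The unadjusted limma p of ABCG1 was 0.0512 before the averaging.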
